A study of Mus musculus with 7 samples.

Results

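Complex I (NADH:ubiquinone oxidoreductase) is the first enzyme of the mitochondrial respiratory chain, and the genes described here are its nuclear-encoded subunits and the assembly factors that share its gene-name root. They are the protein-coding genes whose symbol starts with Nduf, which are 48 of the 57126 genes in the deposited expression table and 48 of its 21643 protein-coding genes. Of the 48, 40 are named as subunits (Ndufa, Ndufb, Ndufc, Ndufs and Ndufv) and 8 as assembly factors (Ndufaf1 to Ndufaf8). Transcripts were measured by RNA sequencing in the mouse line 4T1, a model of triple-negative breast cancer, which carried the red fluorescent protein mCherry. The red cells were isolated by fluorescence sorting after they had grown into mammary fat pad tumors in BALB/c mice, the strain the line came from. In the Botox group (4 libraries, Botox 1 to 4) the fat pad received 0.3 units of Botox, botulinum toxin, which stops nerve terminals from releasing transmitter, in 100 µL of phosphate-buffered saline 7 days before the tumor cells. In the PBS group (3 libraries, PBS 1 to 3) it received 100 µL of phosphate-buffered saline alone, and by the labels each of the 7 libraries comes from its own mouse. Both groups are the same tumor line, the labels give neither the age of the mice nor the number of sorted cells, and no nerve cells were sequenced. The comparison asked how denervation of the fat pad before grafting changed the transcripts of the cancer cells, in a study whose title concerns the passage of mitochondria from nerve to cancer cells.

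Complex I takes electrons from NADH to ubiquinone and pumps protons across the inner mitochondrial membrane. Its matrix arm holds the flavin and the iron-sulfur clusters that carry the electrons, its membrane arm holds the proton pumps, and the accessory subunits surround this core. Of the subunits, 7 are encoded in mitochondrial DNA (mtDNA), the pumps among them, and the others in the nucleus. Assembly factors join the modules without staying in the finished enzyme.

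The deposited unit is TPM, an abundance per gene length whose total is the same in every library, and here the length is the genomic span with its introns. Estimated depth, from the size of the step between the lowest values, was 8.56 to 10.5 M reads in Botox libraries and 8.75 to 13.6 M in PBS libraries. The small RNA of the signal recognition particle (7SL) took 53.0% to 70.4% of TPM in Botox libraries and 47.9% to 52.0% in PBS libraries, and nuclear protein-coding genes took 3.71% to 11.2% and 10.4% to 11.7%. Botox 2 and Botox 4 stood apart, with 12783 and 11806 nuclear protein-coding genes above 0, against 13945 and 15158 in the other Botox libraries and 15295 to 15599 in PBS libraries. Of 7 markers fixed for the tumor epithelium 6 passed the filter, and their summed TPM was 81.7 to 255 in Botox and 219 to 256 in PBS libraries. Of 10 macrophage markers 9 passed, with a summed TPM of 235 to 1096 in Botox and 855 to 1322 in PBS libraries, so the sorted cells held macrophage transcripts in both groups. The part of these differences in the values below was not tested, and in bulk RNA fewer cells of a type and less RNA per cell cannot be told apart.

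Complex I transcripts were sparsely sampled. The 48 genes together had 2034, 1996, 2245 and 1375 estimated reads in Botox 1 to 4, against 1873, 2594 and 2718 in PBS 1 to 3. Their summed TPM was 40.5, 33.9, 54.4 and 20.3 in Botox 1 to 4, against 54.3, 47.8 and 46.1 in PBS 1 to 3. Botox 4 was the lowest library on both measures, PBS 3 was highest on reads and Botox 3, by a narrow margin over PBS 1, on TPM, and the groups overlapped on both. Genes at 0 numbered 0, 18, 5 and 19 of 48 in Botox 1 to 4, against 2, 3 and 2 in PBS 1 to 3, and 12 genes were at 0 in both Botox 2 and Botox 4. For comparison with other genes, 44 of the 48 were above 0 in all PBS libraries. Of those 44, 0%, 31.8%, 4.55% and 36.4% were at 0 in Botox 1 to 4, against 2.19%, 12.7%, 6.76% and 19.1% of the 14323 other nuclear protein-coding genes chosen in the same way. In Botox 2 and Botox 4 the missing share of complex I genes was thus above that of the other genes, and in Botox 1 and Botox 3 it was below. Complex I genes are low in these libraries, and a comparison at equal level was not made.

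**Figure D1:**
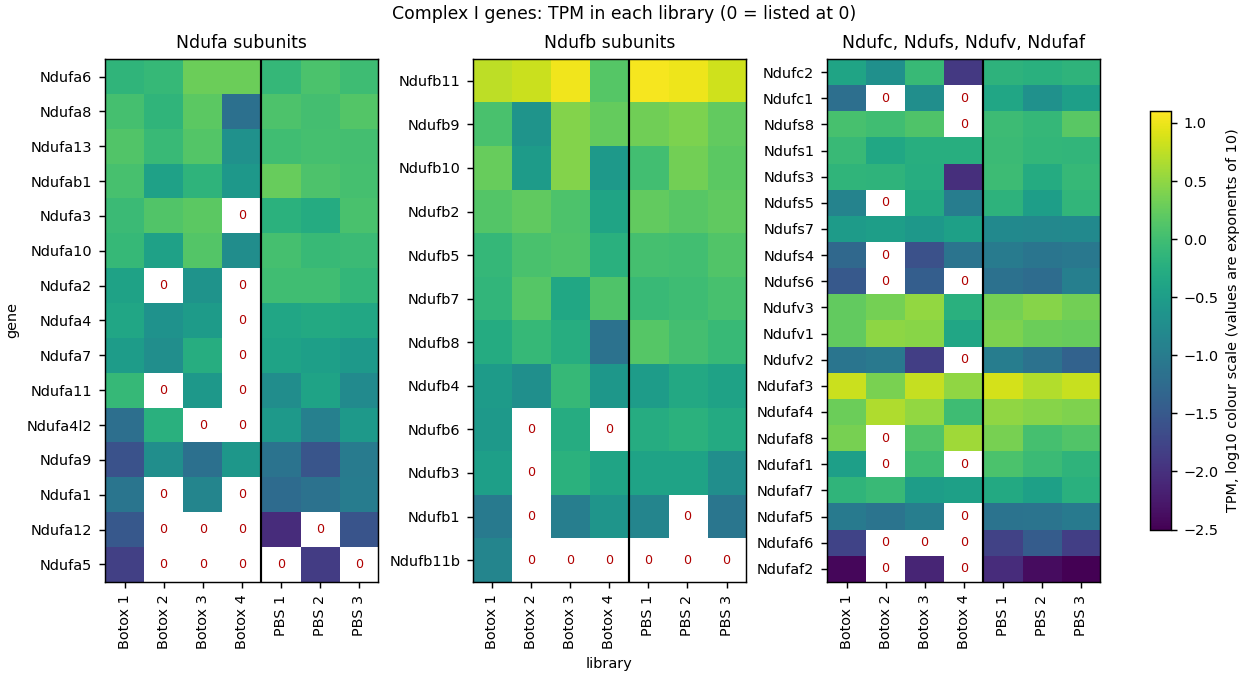
TPM of 47 of the 48 complex I genes in each library (columns, Botox 1 to 4 left of PBS 1 to 3), coloured on a log10 scale, with genes sorted by mean TPM within each class. Zeros (red) crowd into Botox 2 and Botox 4, while Botox 1 has 0 of them and each PBS library has few.

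At least 1 TPM in at least 3 libraries was reached by 17 complex I genes, 14 subunits and 3 assembly factors, and these were tested with limma on log2(TPM + 1), a scale that understates the change of low genes. Of the 17, 0 passed an adjusted p of 0.05 in either direction, against a background of 0% of the 7239 tested protein-coding genes. None of the 17 had all Botox libraries below all PBS libraries or above them, where the background was 28.8% below and 0.0276% above. At an unadjusted p under 0.05, 1 subunit was lower (Ndufab1) and 0 were higher, where the background was 4.97% lower. Log2 fold changes were negative for 15 of the 17, and 97.4% of tested protein-coding genes were negative, so the sign alone says little about these genes. The median log2 fold change was -0.26 over the 14 subunits and -0.15 over the 3 assembly factors, against -0.45 over the protein-coding genes. Relative to that median, 12 of 14 subunits and 3 of 3 assembly factors lay above it. With a pseudocount of 0.1 in place of 1, 8 of 14 subunits and 3 of 3 assembly factors lay above the protein-coding median.

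The relative position of the subunits moved with the scale, with the genes that passed the filter and with single libraries. The subunit median lay 0.19 (log2) above the protein-coding median on the deposited scale, and 0.070 above it after division by median-of-ratios size factors, which themselves moved the protein-coding median to -0.024. When TPM was rescaled to the same total over nuclear protein-coding genes, 32 subunits passed the filter. Their median minus that of the 12062 protein-coding genes that passed was -0.21. More genes passed here, so this value differs from 0.19 in its genes as well as its scale. A median over the same 14 subunits is not given. Above the protein-coding median lay 9 of 14 subunits with size factors and 13 of 32 after rescaling. The subunit median lay 0.12 above it with a pseudocount of 0.1 and 0.065 above it without Botox 3. The median of the 3 assembly factors lay 0.30 above the protein-coding median on both the deposited and the size-factor scale and 0.12 above it with a pseudocount of 0.1. It lay 0.16 above it over the 5 assembly factors that passed after rescaling and 0.14 above it over all 8 with no filter. Without Botox 4 the assembly median minus the protein-coding median was -0.067, so that 1 library set the sign of this difference. Under these settings 0 complex I genes passed the threshold, and 0 of 48 passed without a filter, where 0.0469% of protein-coding genes passed downward and 0% upward.

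**Figure D2:**
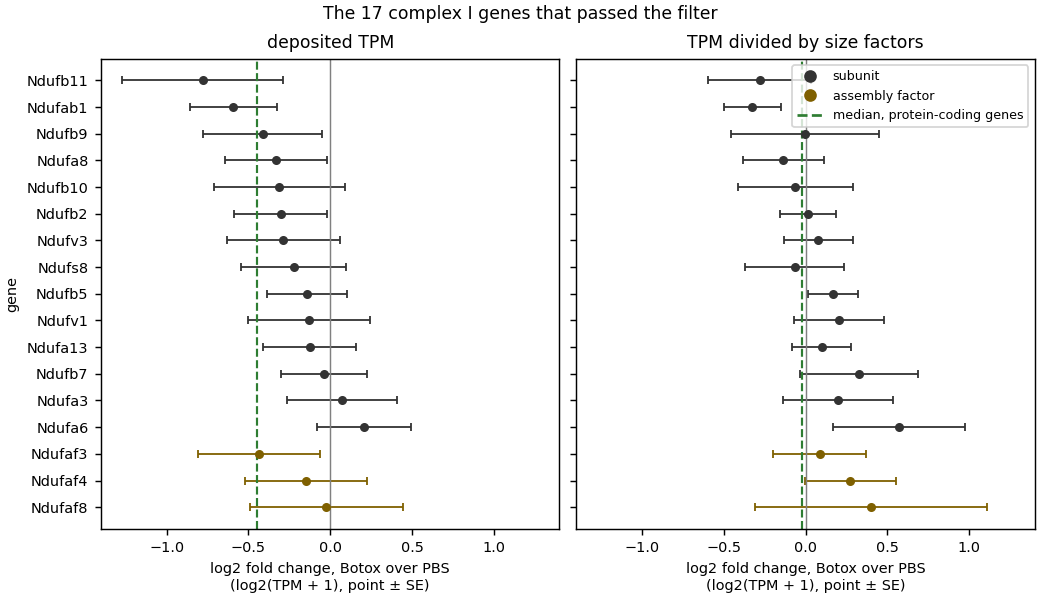
Log2 fold change of Botox over PBS ± SE for the 17 complex I genes that passed the filter, on deposited TPM (left) and on TPM divided by size factors (right), with n = 4 Botox and 3 PBS libraries. The dashed line is the median of tested protein-coding genes, at -0.45 and -0.024, and all points except Ndufb11 and Ndufab1 lie to its right in the left panel.

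Among the nuclear core subunits, which bind the cofactors and are shared with bacteria, Ndufv1 had the highest mean TPM, that is per genomic span. Ndufs1 had more estimated reads per kb of the longest mature transcript (63.3, against 47.6 for Ndufv1). Ndufv1, which holds the flavin and binds NADH, had 1.72, 3.07, 2.92 and 0.430 TPM in Botox 1 to 4, against 2.44, 1.97 and 1.85 TPM in PBS 1 to 3. Botox 2 and Botox 3 exceeded every PBS library and Botox 4 lay far below them (log2 fold change -0.13 ± 0.37 SE, limma adjusted p = 0.80). Ndufs1, the large iron-sulfur subunit next to it, had 205, 120, 115 and 194 estimated reads in Botox 1 to 4, against 147, 195 and 204 in PBS 1 to 3, and its long span put it below the filter at 0.436 to 0.871 TPM in Botox and 0.750 to 0.901 TPM in PBS libraries. The groups overlapped.

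Ndufs8, which carries iron-sulfur clusters toward the quinone site, had 1.12, 0.987, 1.28 and 0 TPM in Botox 1 to 4, against 0.937, 0.788 and 1.5 TPM in PBS 1 to 3. Its 3 Botox libraries above 0 lay within the PBS range, and the log2 fold change was -0.22 ± 0.32 SE (limma adjusted p = 0.62). Ndufv2, the small iron-sulfur partner of Ndufv1, was at 0 in Botox 4 and reached 0.0145 to 0.0895 TPM in the others, against 0.0427 to 0.107 TPM in PBS libraries. It was covered by at most 17 estimated reads in a Botox library, and the groups overlapped.

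Ndufs7, which holds the last iron-sulfur cluster before ubiquinone, was the member whose groups separated upward. It had 0.294, 0.330, 0.260 and 0.355 TPM in Botox 1 to 4, against 0.159, 0.151 and 0.159 TPM in PBS 1 to 3. These values rest on 16, 21, 12 and 28 estimated reads in Botox 1 to 4, against 6, 9 and 10 in PBS 1 to 3. All Botox libraries exceeded all PBS libraries, on TPM and on reads alike, and the mean was 0.310 ± 0.0414 TPM in Botox libraries (SD, n = 4) and 0.156 ± 0.00495 TPM in PBS libraries (SD, n = 3). Among all 17046 protein-coding genes with a value above 0, 0.0939% had all Botox libraries above all PBS libraries. Fitted without a filter, the log2 fold change of Ndufs7 was 0.18 ± 0.046 (SE) and did not pass (unadjusted p = 0.0074, limma adjusted p = 0.45). Per 1000000 nuclear protein-coding reads it had 2.35, 3.21, 2.02 and 6.91 reads in Botox 1 to 4, against 0.956, 1.05 and 1.05 in PBS 1 to 3, and there 3.43% of genes separated upward. The gene (ENSMUSG00000020153) spans chromosome 10 from 80084955 to 80092629 in the mm39 coordinates of the deposited table, and no other gene of the table overlapped it with a value above 0.

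Separation downward was found for 5 of the 48 genes on deposited TPM, Ndufa2, Ndufs4 and Ndufs6 of the matrix arm and Ndufb8 and Ndufc1 of the membrane arm, where 20.7% of protein-coding genes with a value above 0 separated downward. They are named here because their values were seen to separate. Ndufa2, a small accessory subunit with a thioredoxin-like fold, had 0.381, 0, 0.224 and 0 TPM in Botox 1 to 4, against 1.01, 0.981 and 0.769 TPM in PBS 1 to 3. All Botox libraries were below all PBS libraries, on 6, 0, 3 and 0 estimated reads in Botox 1 to 4, against 11, 17 and 14 in PBS 1 to 3, and without a filter the log2 fold change was -0.75 ± 0.15 SE (unadjusted p = 0.0022, limma adjusted p = 0.30). Ndufs6, which carries a zinc site in the matrix arm, had 2, 0, 2 and 0 estimated reads in Botox 1 to 4, against 3, 4 and 8 in PBS 1 to 3.

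Ndufs4, whose loss in mice is used as a model of Leigh syndrome, had 37, 0, 15 and 79 estimated reads in Botox 1 to 4, against 49, 63 and 73 in PBS 1 to 3, the widest swing between Botox libraries of the 5. Its TPM was 0.0520, 0, 0.0248 and 0.0765 in Botox 1 to 4, against 0.0993, 0.0806 and 0.0888 in PBS 1 to 3. Ndufb8, a membrane-arm subunit, had 0.514, 0.808, 0.557 and 0.0708 TPM in Botox 1 to 4, against 1.39, 1.07 and 0.836 TPM in PBS 1 to 3. Of the 5, Ndufa2 and Ndufs6 also separated downward per 1000000 nuclear protein-coding reads, where 3.71% of 17033 genes did, and Ndufs4, Ndufb8 and Ndufc1 overlapped between the groups there.

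In the rest of the matrix arm, Ndufa6 had the highest log2 fold change of the tested genes. Ndufa6, which with the acyl carrier protein Ndufab1 forms a lobe of the matrix arm, had 0.709, 0.808, 1.95 and 1.95 TPM in Botox 1 to 4, against 0.779, 1.2 and 0.964 TPM in PBS 1 to 3. Botox 3 and Botox 4 lay above all PBS libraries and Botox 1 and Botox 2 at or below the lower end of their range, with 21, 28, 49 and 84 estimated reads in Botox 1 to 4, against 16, 39 and 33 in PBS 1 to 3. The log2 fold change was 0.21 ± 0.29 SE (limma adjusted p = 0.61), which is the 99.4th percentile of protein-coding genes, and -0.12 with limma's array weights. Ndufv3, an accessory subunit next to the NADH site, had 1.71, 2.21, 3.29 and 0.607 TPM in Botox 1 to 4, against 2.25, 2.83 and 2.15 TPM in PBS 1 to 3, with overlapping groups (log2 fold change -0.29 ± 0.34 SE, limma adjusted p = 0.56). Ndufa9, which binds NADPH near the quinone site, stayed below the filter with 5, 43, 11 and 71 estimated reads in Botox 1 to 4, against 10, 6 and 22 in PBS 1 to 3. Its reads were high in the libraries with the most zeros, Botox 2 and Botox 4, and the groups overlapped.

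Ndufab1 is the mitochondrial acyl carrier protein, which serves fatty acid synthesis and sits in both arms of complex I, and it had the smallest p of the 17. It had 1.11, 0.359, 0.687 and 0.260 TPM in Botox 1 to 4, against 1.82, 1.25 and 1.1 TPM in PBS 1 to 3. Botox 1 lay just above the lowest PBS library and the other Botox libraries lay below all PBS libraries. The log2 fold change was -0.59 ± 0.27 SE on deposited TPM (unadjusted p = 0.049, limma adjusted p = 0.42) and -0.32 ± 0.17 SE with size factors (limma adjusted p = 0.92). It was the only tested subunit besides Ndufb11 below the protein-coding median on the deposited scale. The gene (ENSMUSG00000030869) spans chromosome 7 from 121684626 to 121701110 (mm39).

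In the membrane arm, Ndufb11 had the highest mean TPM over the libraries of all 48 genes, although Ndufaf3 was higher in Botox 1 and Botox 4. Ndufb11, an X-linked accessory subunit needed for assembly of the membrane arm, had 5.48, 6.42, 10.4 and 1.4 TPM in Botox 1 to 4, against 11.3, 10.3 and 6.98 TPM in PBS 1 to 3. Botox 3 lay within the PBS range and the other Botox libraries below it. The log2 fold change was -0.78 ± 0.49 SE (limma adjusted p = 0.42) and, with size factors, -0.28 ± 0.32 SE (limma adjusted p = 0.93), and without Botox 4 it was -0.34 on deposited TPM. Counted per kb of the longest protein-coding transcript of each gene (GENCODE M21), Ndufb11 again led with 131 estimated reads per kb, ahead of Ndufv3 with 108, Ndufa8 with 107, Ndufb5 with 103 and Ndufb9 with 102, while Ndufa5 had 0.327. This order depends on the transcript chosen. Ndufb2 had 106 estimated reads on average, against 119 for Ndufb11, but 24.3 per kb, as its longest transcript has 4371 bases. Mean library values differ by less than the spread between libraries for Ndufv3, Ndufa8, Ndufb5 and Ndufb9, so their order is not resolved.

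Ndufb9, which like Ndufa6 belongs to the LYR family, had 1.18, 0.231, 2.70 and 1.80 TPM in Botox 1 to 4, against 2.06, 2.42 and 1.73 TPM in PBS 1 to 3. Botox 2 was low and Botox 3 high, and the groups overlapped (log2 fold change -0.41 ± 0.36 SE, limma adjusted p = 0.46). Ndufb5 had the narrowest spread of the tested Ndufb genes in its log2 fold change, at -0.14 ± 0.24 SE (limma adjusted p = 0.67), with 0.797, 1.15, 1.28 and 0.607 TPM in Botox 1 to 4, against 1.08, 1.04 and 1.32 TPM in PBS 1 to 3. Ndufa8, a membrane-arm subunit on the side of the intermembrane space, had 1.1, 0.71, 1.55 and 0.0669 TPM in Botox 1 to 4, against 1.26, 1.05 and 1.36 TPM in PBS 1 to 3. Botox 4 alone was far below the others (log2 fold change -0.33 ± 0.31 SE, limma adjusted p = 0.48), and without Botox 2 and Botox 4 the value was 0.060. Ndufa3, the other tested gene with a positive value, was at 0 in Botox 4 and had 0.908, 1.31 and 1.58 TPM in Botox 1 to 3, against 0.620, 0.522 and 1.16 TPM in PBS 1 to 3, and its log2 fold change was 0.072 ± 0.34 SE (limma adjusted p = 0.88) and -0.24 with a pseudocount of 0.1.

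The remaining tested subunits showed no common pattern over the libraries. Ndufb10, in the distal membrane arm, had 1.81, 0.299, 2.68 and 0.281 TPM in Botox 1 to 4, against 1.01, 2.12 and 1.57 TPM in PBS 1 to 3, so Botox 2 and Botox 4 were low and Botox 3 high (log2 fold change -0.31 ± 0.40 SE, limma adjusted p = 0.58). Ndufb7, on the side of the intermembrane space, ran the other way, with 0.741, 1.41, 0.437 and 1.3 TPM in Botox 1 to 4, against 0.863, 0.959 and 1.13 TPM in PBS 1 to 3 (log2 fold change -0.039 ± 0.26 SE, limma adjusted p = 0.91, and 0.33 with size factors). Its copy elsewhere in the genome held on average 36.4% of the reads of both. Botox 2 and Botox 4 exceeded all PBS libraries here, although both had many genes at 0. Ndufb2 and Ndufa13 (also known as GRIM-19) had log2 fold changes of -0.30 ± 0.28 SE and -0.13 ± 0.29 SE (limma adjusted p = 0.48 and 0.75), and for each of them Botox 4 was the only library far below the rest, at 0.396 TPM for Ndufb2 and 0.209 TPM for Ndufa13.

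Below the filter, Ndufa10, a membrane-arm subunit that resembles a nucleoside kinase, had the most reads of the Ndufa genes, with 199, 104, 289 and 66 in Botox 1 to 4, against 187, 227 and 254 in PBS 1 to 3. Ndufc2 had 22, 13, 39 and 1 estimated reads in Botox 1 to 4, against 26, 37 and 45 in PBS 1 to 3, and Botox 3 kept its groups from separating. Ndufc1 had 2, 0, 5 and 0 estimated reads in Botox 1 to 4, against 9, 7 and 12 in PBS 1 to 3, all Botox libraries being lower. Both are small subunits at the foot of the membrane arm. Ndufa7, in the matrix arm, had 30, 22, 46 and 0 estimated reads in Botox 1 to 4, against 26, 36 and 32 in PBS 1 to 3, and Ndufb3, in the membrane arm, had 23, 0, 36 and 40, against 18, 29 and 15. The 2 genes thus reached 0 in different Botox libraries, and both overlapped. Ndufb6, also in the membrane arm, was at 0 in Botox 2 and Botox 4 and had 17.7 and 28 in Botox 1 and Botox 3, against 23, 43.4 and 36.8 in PBS 1 to 3. Ndufb1 had at most 22 estimated reads in a library, Ndufa5 at most 1, and Ndufb11b was above 0 in Botox 1 alone, with 1.

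Ndufa4, named as a complex I subunit but now placed in cytochrome c oxidase, had 0.431, 0.218, 0.300 and 0 TPM in Botox 1 to 4, against 0.424, 0.481 and 0.458 TPM in PBS 1 to 3. Botox 1 lay within the PBS range and the others below it. Its paralog Ndufa4l2, which is induced by hypoxia, had 1, 11, 0 and 0 estimated reads in Botox 1 to 4, against 3, 2 and 5 in PBS 1 to 3, and Botox 2 alone was high.

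Of the 8 assembly factors, Ndufaf3 and Ndufaf4, which work together on the module around the quinone site, were the best measured. Ndufaf3 had 6.55, 2.35, 6.14 and 3.18 TPM in Botox 1 to 4, against 7.40, 4.81 and 6.31 TPM in PBS 1 to 3. Botox 1 and Botox 3 lay within the PBS range and Botox 2 and Botox 4 below it, and the log2 fold change was -0.44 ± 0.37 SE (limma adjusted p = 0.45) on deposited TPM and 0.087 ± 0.29 SE with size factors (limma adjusted p = 0.98). Ndufaf4 had 1.96, 4.73, 3.32 and 0.970 TPM in Botox 1 to 4, against 3.21, 2.80 and 2.54 TPM in PBS 1 to 3. Here Botox 2 was the highest library and Botox 4 the lowest (log2 fold change -0.15 ± 0.37 SE, limma adjusted p = 0.77, and 0.27 ± 0.28 SE with size factors, limma adjusted p = 0.93). Ndufaf8, which stabilizes Ndufaf5, ran the other way, with 0 in Botox 2 and its highest value of 3.88 TPM in Botox 4, beside 2.30 and 1.31 TPM in Botox 1 and Botox 3 and 2.29, 1.08 and 1.31 TPM in PBS 1 to 3 (log2 fold change -0.023 ± 0.47 SE, limma adjusted p = 0.97).

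The other assembly factors stayed below the filter. Ndufaf1, part of the complex that builds the membrane arm, was at 0 in Botox 2 and Botox 4 and had 18 and 43 estimated reads in Botox 1 and Botox 3, against 44, 52 and 42 in PBS 1 to 3. Ndufaf7, a methyltransferase needed early in assembly, had 56, 78, 21 and 39 estimated reads in Botox 1 to 4, against 26, 30 and 54 in PBS 1 to 3. Ndufaf5, which hydroxylates Ndufs7, had 22, 21, 22 and 0 in Botox 1 to 4, against 12, 20 and 25 in PBS 1 to 3. The groups overlapped for all 3. Ndufaf2 and Ndufaf6 had at most 7 estimated reads in any library.

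Summed over modules and given as nuclear RPM, the reads per 1000000 nuclear protein-coding reads, which removes the share taken by small RNAs and mtDNA, the sum of complex I reads did not separate the groups. All 48 genes had 299, 305, 377 and 339 nuclear RPM in Botox 1 to 4, against 298, 303 and 285 in PBS 1 to 3, with overlapping groups. The 7 nuclear core subunits had 58.5, 59.1, 52.3 and 62.5 in Botox 1 to 4, against 49.7, 44.8 and 46.8 in PBS 1 to 3. The 16 genes of the matrix arm, core subunits included, had 94.3, 105, 111 and 138 in Botox 1 to 4, against 88.0, 93.1 and 87.1 in PBS 1 to 3. The 8 assembly factors had 46.5, 62.3, 53.0 and 59.5 in Botox 1 to 4, against 46, 41 and 40.6 in PBS 1 to 3. In these 3 sums all Botox libraries exceeded all PBS libraries, by a narrow margin for Botox 1 in the matrix arm and the assembly factors and for Botox 3 in the core subunits. The 20 genes of the membrane arm overlapped, with 136, 127, 200 and 132 in Botox 1 to 4, against 138, 147 and 138 in PBS 1 to 3. The 4 subunits in neither arm list, Ndufab1, Ndufa4, Ndufa4l2 and Ndufb11b, were together at 22.7, 11.2, 13.6 and 10.9 in Botox 1 to 4, against 26.3, 22.1 and 18.8 in PBS 1 to 3. Here 3 Botox libraries were lower than every PBS library and Botox 1 was within the PBS range.

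None of these 3 separations was independent of the scale: per 1000000 reads of all genes the groups overlapped for the core subunits, the matrix arm and the assembly factors. The core subunits also overlapped without Ndufs1, at 28.3, 40.7, 33.0 and 14.6 nuclear RPM in Botox 1 to 4, against 26.3, 22 and 25.5 in PBS 1 to 3. A single gene also weighed on the separation of the matrix arm and of the assembly factors. In the matrix arm Botox 1 exceeded PBS 2 by 94.3 to 93.1 nuclear RPM, of which Ndufs1 held 30.2 and 22.8. Among the assembly factors Ndufaf4 held 41.5 of 62.3 nuclear RPM in Botox 2, against 15.1 to 17.7 in PBS libraries. Both genes overlapped between the groups, and these sums without them are not given. No test is given for the sums. Single genes seldom separated on this scale, 2 of 40 subunits downward (Ndufa2 and Ndufs6) and 1 upward (Ndufs7), and 0 of 8 assembly factors, against a background of 3.71% downward and 3.43% upward. Ratios of means were above 1 for 20 of 40 subunits and 5 of 8 assembly factors.

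**Figure D3:**
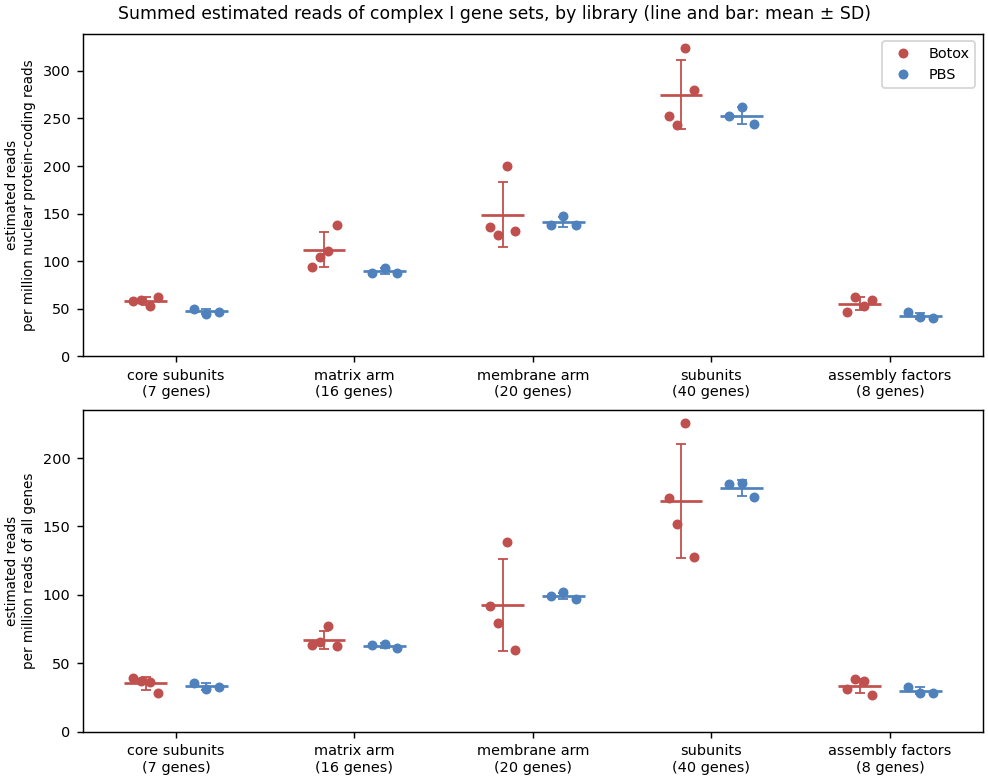
Summed estimated reads of complex I gene sets per 1000000 nuclear protein-coding reads (top) and per 1000000 reads of all genes (bottom), as dots for libraries with the mean ± SD, Botox (n = 4) left of PBS (n = 3). Core subunits, matrix arm and assembly factors separate in the top panel and overlap in the bottom panel, and Botox 3 stands high in the membrane arm with 200 in the top panel.

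Reads of several complex I genes can also lie on processed pseudogenes, spliced copies of the transcript inserted elsewhere in the genome. A search of the GENCODE M21 transcripts of 47 members against its pseudogene transcripts found 33 copies of 14 genes, at 90.6% to 100% identity over at least 100 bases and at least 50% of the copy. Of the 33 copies, 10 had a value above 0. Together they held 21.6%, 20.2%, 22.3% and 13.4% of the reads of genes and copies in Botox 1 to 4, against 22.5%, 23.5% and 22.2% in PBS 1 to 3. For 5 genes (Ndufa12, Ndufb4, Ndufs3, Ndufs5 and Ndufa11) the copies held more reads than the gene. The values of these genes, of Ndufab1 and of Ndufb7 are uncertain for this reason. These 7 genes are named for their copies.

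The following stretches of 90 bases, from the GENCODE M21 transcripts on GRCm38, show how close a copy can be. Each is centred on the junction of 2 exons of the gene, 45 bases on either side, so that a read crossing it lies whole on the copy but is split by an intron on the gene. Capitals mark bases that differ within a pair.
Ndufa12 (chromosome 10, exons 3 and 4): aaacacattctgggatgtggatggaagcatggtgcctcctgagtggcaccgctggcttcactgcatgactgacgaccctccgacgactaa
Ndufa12-ps (chromosome 5): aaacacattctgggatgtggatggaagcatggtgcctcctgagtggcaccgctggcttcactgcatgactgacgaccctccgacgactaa
Ndufb4 (chromosome 16, exons 1 and 2): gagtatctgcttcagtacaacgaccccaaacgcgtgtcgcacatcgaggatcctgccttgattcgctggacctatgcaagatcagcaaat
Ndufb4c (chromosome 15): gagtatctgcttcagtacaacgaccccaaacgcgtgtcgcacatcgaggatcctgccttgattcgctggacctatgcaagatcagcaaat
Ndufs3 (chromosome 2, exons 4 and 5): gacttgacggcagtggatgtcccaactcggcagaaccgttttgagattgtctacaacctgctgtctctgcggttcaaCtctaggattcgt
Gm12251 (chromosome 11): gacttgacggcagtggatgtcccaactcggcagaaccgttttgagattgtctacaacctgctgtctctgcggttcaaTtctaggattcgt
Ndufa4 (chromosome 6, exons 3 and 4): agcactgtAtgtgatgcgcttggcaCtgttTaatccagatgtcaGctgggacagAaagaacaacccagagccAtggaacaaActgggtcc
Gm14630 (chromosome X): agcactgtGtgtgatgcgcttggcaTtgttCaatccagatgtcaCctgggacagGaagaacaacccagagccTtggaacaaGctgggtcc

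The pairs of Ndufa12 and Ndufb4 have 0 differences in these windows, the pair of Ndufs3 has 1, C78T counted from 1 at the first base printed with the gene first, and the pair of Ndufa4 has 7. Ndufa12, an accessory subunit of the matrix arm, had 5, 0, 0 and 0 estimated reads in Botox 1 to 4, against 1, 0 and 5 in PBS 1 to 3, while Ndufa12-ps, 99.5% identical, had 151, 169, 155 and 31 in Botox 1 to 4, against 140, 241 and 224 in PBS 1 to 3. The copy thus held nearly all reads of the pair in both groups. Ndufb4, in the membrane arm, had 15.3, 12, 35.3 and 19 estimated reads in Botox 1 to 4, against 11.1, 26.4 and 22.2 in PBS 1 to 3, and Ndufb4c, 100% identical, had 151, 99, 244 and 49 in Botox 1 to 4, against 177, 213 and 187 in PBS 1 to 3. Here too the copy led in every library.

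Ndufs3, a core subunit of the matrix arm, had 52.6, 58, 33.8 and 1 estimated reads in Botox 1 to 4, against 46.1, 40.9 and 68.1 in PBS 1 to 3, and its copy Gm12251, 98.6% identical, had 96.4, 92, 87.2 and 61 in Botox 1 to 4, against 97.9, 138 and 170 in PBS 1 to 3. Ndufs5, a membrane-arm subunit on the side of the intermembrane space, had 5, 0, 16 and 6 estimated reads in Botox 1 to 4, against 18, 14 and 33 in PBS 1 to 3, and Ndufs5-ps, 99.4% identical, had 26, 79, 28 and 14 in Botox 1 to 4, against 26, 47 and 34 in PBS 1 to 3. For Ndufs5 the copy was highest in Botox 2, the library in which the gene was at 0. Ndufa4 stands at the other end: its 3 copies held 1 estimated read in all libraries together. The reads of 14 short copies of Ndufa1 were 0 in every library, and Ndufa1 itself had at most 3. Whether reads of a gene were assigned to its copy was not tested.

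**Figure D4:**
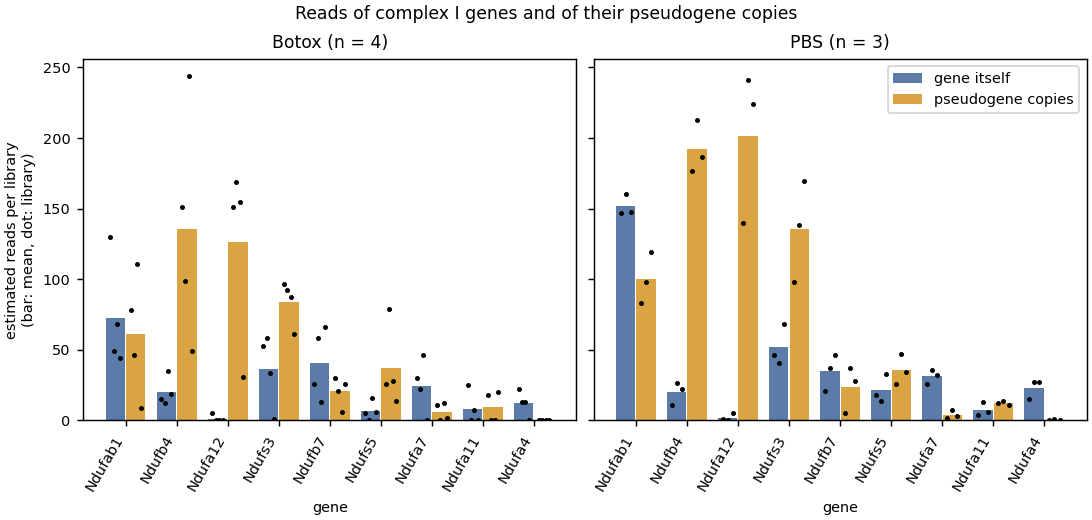
Estimated reads of 9 complex I genes with a copy above 0 (blue) and of their pseudogene copies (yellow), as mean bars with library dots, Botox (n = 4) left of PBS (n = 3). For Ndufa12, Ndufb4, Ndufs3, Ndufs5 and Ndufa11 the copies hold more reads than the gene over all libraries.

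With the reads of the copies added, all genes and copies together had 382, 383, 485 and 392 nuclear RPM in Botox 1 to 4, against 385, 396 and 366 in PBS 1 to 3, with overlapping groups and Botox 3 highest. The separation of the matrix arm was lost with its copies added, at 132, 145, 154 and 161 nuclear RPM in Botox 1 to 4, against 126, 138 and 129 in PBS 1 to 3. The core subunits, to which Gm12251 adds, still separated, with 72.7, 73.1, 67.0 and 77.5 nuclear RPM in Botox 1 to 4, against 65.3, 60.9 and 64.6 in PBS 1 to 3, and the assembly factors had no copies. Without Ndufs1 the core subunits and their copy overlapped, with 42.5, 54.8, 47.6 and 29.6 in Botox 1 to 4, against 41.9, 38.1 and 43.3 in PBS 1 to 3. Besides its 48 protein-coding genes the table lists 7 other entries named after this family, 6 processed pseudogenes and 1 long noncoding RNA, Ndufb4b. Of the 48 genes, 20 overlapped another gene with a value above 0, and for 19 of them that gene lay on the other strand, Ndufab1, Ndufa2, Ndufb5, Ndufb11, Ndufs1 and Ndufaf3 among them. The shared stretch ranged widely, for example 49 bases for Ndufaf3, 67 for Ndufa2, 2830 for Ndufab1 and 14699 for Ndufs1 with a long noncoding RNA. The strand setting of the counting is not given in the sources used here, so reads within the shared bases of such pairs cannot be told apart.

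The 7 complex I subunits encoded in mtDNA, mt-Nd1 to mt-Nd6 and mt-Nd4l, had a summed TPM of 11846, 14693, 6878 and 16539 in Botox 1 to 4, against 16117, 14520 and 15330 in PBS 1 to 3. Botox 3 was lowest and Botox 4 highest, the reverse of the nuclear genes. Estimated reads of the mtDNA subunits were 47.4, 71.2, 21.1 and 146 times those of the 48 nuclear genes in Botox 1 to 4, against 49.1, 50.3 and 52.9 times in PBS 1 to 3. The ratio thus lay close together in PBS libraries and on both sides of them in Botox libraries. All 7 genes passed the filter with negative log2 fold changes and their median, relative to that of protein-coding genes, was -0.081 (0.13 with size factors), 0 passed the threshold in limma, and 1 (mt-Nd4l) had an unadjusted p under 0.05 on deposited TPM and 0 with size factors. For 2 of the 7 the groups separated downward on TPM, as they did for 28.8% of tested protein-coding genes. These were mt-Nd5, a large proton-pump subunit with 832 to 2113 TPM in Botox and 2137 to 2447 TPM in PBS libraries (log2 fold change -0.53 ± 0.40 SE, limma adjusted p = 0.43), and mt-Nd6, the subunit encoded on the other strand, with 106 to 297 TPM in Botox and 298 to 401 TPM in PBS libraries (log2 fold change -0.72 ± 0.45 SE, limma adjusted p = 0.42). mt-Nd4l, a small subunit, had 563, 220, 126 and 141 TPM in Botox 1 to 4, against 549, 574 and 736 TPM in PBS 1 to 3, with Botox 1 alone in the PBS range (limma adjusted p = 0.42).

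Among genes of the same pathway, 22 of 41 listed nuclear subunits and factors of complexes II to V passed the filter, 0 of them passed the threshold in limma, 0 had an unadjusted p under 0.05 on deposited TPM and 2 with size factors, and their median, relative to the protein-coding median, was -0.065 (log2) on deposited TPM and -0.0049 with size factors. In Botox 1 to 4 these 41 genes had 955, 888, 1302 and 911 nuclear RPM, against 1001, 958 and 939 in PBS 1 to 3. As for the complex I genes, Botox 3 was highest and the groups overlapped. Of 12 complex I assembly factors with other names 11 were matched, 8 passed the filter, all 8 with negative log2 fold changes, and 0 passed the threshold in limma or an unadjusted p of 0.05, with a relative median of -0.099 (-0.14 with size factors). The 11 had 164, 137, 215 and 164 nuclear RPM in Botox 1 to 4, against 195, 181 and 153 in PBS 1 to 3. Unlike the sum of the 8 Ndufaf genes, theirs overlapped between the groups. Of 9 regulators of nuclear respiratory genes, such as Nrf1, Gabpa, Yy1 and Esrra, 5 passed the filter and 0 the threshold in limma or an unadjusted p of 0.05, with a relative median of -0.076 (0.055 with size factors). In the authors' deposited KEGG table, the set of oxidative phosphorylation had 45 genes, a B over C ratio of 0.706 and a false discovery rate of 4.11e-10. A false discovery rate under 0.05 was reached by 220 of the 227 sets listed there, so passing it does not single out this pathway. In the same deposited table all 227 sets had a ratio under 1, with a median of 0.683, and 70 sets had a higher ratio than oxidative phosphorylation. B and C are not spelled out there and were read as Botox and control.

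Promoters were searched for motifs of 3 regulators of respiratory genes. In RefSeq promoters (GRCm38.p6, 250 bases before to 50 after the start), found for 41 of the 48 genes, GCATGCG, the core of the NRF-1 motif, lay on either strand at 5 (12.2%), against 4.01% of 27025 genes with a promoter. AAGATGGC, a motif of YY1, lay at 8 (19.5%), against 3.19%, and CCGGAAGT, a motif of ETS factors such as GABP, at 1 (2.44%), against 4.31%. The 27025 genes were not limited to protein-coding genes or to genes with a value above 0, unlike the 41. Among protein-coding genes above 0, AAGATGGC lay at 3.92% of those with overlapping groups and at 5.92% of those that separated downward. A match to the letters does not show that a factor binds, and no binding was measured here.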

How the data were processed

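Each of the 7 libraries was made from 4T1 cells of a separate mouse. Bowtie2 2.2.5, SAMtools, DESeq2 and the build mm39 are named in the submitters' processing notes, with no role or order; how reads were counted, on which strand, and what was done with reads matching several places is not given in the sources used here. TPM as deposited was computed by the authors over genomic spans (stop minus start), introns included, and with 0.001 added to every value; that constant was subtracted. The authors' deposited table of 227 KEGG sets holds, per the file headers, p-values, false discovery rates, the ratio of B over C and a signed fold change, which is a score that is negative where the ratio is under 1. No per-sample column of the expression table was left unused (0 columns).

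Estimated reads are TPM times span divided by the step that a periodogram found in each library; 82.7% to 88.5% of low values lay within 0.1 of a whole number, so no count test was run and the estimates serve as description. Without molecular identifiers several reads can stem from the same molecule. The filter of 1 TPM in 3 or more libraries left 11253 genes, 7239 of these protein-coding, and limma 3.58.1 (R 4.3.3) was run on their log2(TPM + 1) with an intensity trend, group as the only term, two-sided tests and Benjamini-Hochberg adjustment over all tested genes at 0.05. Of the 7239, 0 passed in either direction, and 360 were lower and 0 higher at an unadjusted p under 0.05. The fit was checked on simulated data with independent noise per gene and no shift of whole libraries. The check therefore does not cover such shifts. P-values measure the spread between mice as labelled. Size factors are medians of ratios over 9430 genes above 0 in all libraries. Copies were found with blastn 2.17.0 in GENCODE M21 (GRCm38); its coordinates were not mixed with those of the mm39 table. Python 3.11.15 with numpy 2.4.6 and pandas 2.3.3 did the rest.

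Named genes were the nuclear core subunits (1 gene is not reported here by itself but stays in all sums and counts), in each class the 2 best measured and the 2 tested members with the smallest p, members past the threshold, tested members whose groups did not overlap, members at 0 throughout, Ndufa4, Ndufa4l2 and Ndufab1, the mtDNA subunits and the Nduf entries that are not protein-coding. Others are named for reasons given with them, after their values were seen, among them Ndufa6, Ndufa3, Ndufa9 and the smaller assembly factors. The members and lists were chosen with earlier results of these data known. Alternatives covered the scale, the pseudocount, the filter, the weights, left-out libraries and a replicate block. The block takes out the Botox library whose number no PBS library has, so it is no check apart from leaving that library out.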

Additional observations from a re-analysis of the deposited data

Results flagged for a closer look

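Among 42 groups of 4 Botox libraries examined, 2 held a library whose gap to the next was above Dixon's critical value at the 95% level, and chance gives about 1 group in 20. Ndufa4l2, a hypoxia-induced paralog of Ndufa4, had its highest Botox value in Botox 2, 0.606744 TPM on 11 estimated reads, beside 0.0645 TPM in Botox 1 and 0 in Botox 3 and Botox 4, against 0.117 to 0.279 TPM in PBS libraries. The membrane arm had 199.924 estimated reads per 1000000 nuclear protein-coding reads in Botox 3, beside 127 to 136 in the other Botox libraries, against 138 to 147 in PBS libraries.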

How the results depend on the processing

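Under all 22 alternatives, of which 4 that join the filter with another choice were chosen after seeing the data, 0 complex I genes passed an adjusted p of 0.05, and the lowest adjusted p of any of them was 0.19. The subunit median relative to protein-coding genes, 0.19 over 14 subunits on deposited TPM, was 0.070 with size factors. It was -0.21 after rescaling over nuclear protein-coding genes, there over the 32 subunits that passed. It was 0.12 with a pseudocount of 0.1, 0.070 with at least 0.1 TPM, 0.037 with no filter and 0.065 to 0.29 over the left-out libraries. Of the settings chosen after seeing the data, no filter gave -0.0092 with size factors, -0.049 with a pseudocount of 0.1 and 0.025 without Botox 2 and Botox 4 together, and at least 0.1 TPM without these 2 libraries gave 0.055. The assembly median relative to protein-coding genes, 0.30 on deposited TPM, was 0.16 after rescaling, 0.12 with a pseudocount of 0.1 and 0.16 with at least 0.1 TPM. It was 0.14 with no filter and 0.050 with no filter and size factors, and ranged from -0.067 to 0.35 over the left-out libraries.

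Of 251 log2 fold changes of 12 genes under these settings, 193 kept their sign and 58 turned; none was past the threshold in either state, and the cause was not tested. With size factors, Ndufaf3 became 0.087, Ndufaf4 0.27, Ndufb5 0.17, Ndufv1 0.21 and Ndufv3 0.079, and with size factors and no filter 0.084, 0.27, 0.17, 0.20 and 0.077. Rescaled over nuclear protein-coding genes, they became 0.083, 0.34, 0.30, 0.26 and 0.097. Quantile normalization gave Ndufa8 0.20, Ndufaf3 0.014, Ndufaf4 0.26, Ndufb5 0.35, Ndufb9 0.094, Ndufs8 0.26, Ndufv1 0.27 and Ndufv3 0.11. Array weights gave Ndufa6 -0.12, Ndufaf3 0.056 and Ndufs8 0.099, and a pseudocount of 0.1 gave Ndufa3 -0.24. Without Botox 2 and Botox 4 together, under any of the filters, Ndufa8 was 0.060, Ndufaf3 0.049, Ndufs8 0.097, Ndufv1 0.085 and Ndufv3 0.0068, and with size factors as well Ndufa8 was 0.17, Ndufaf3 0.22, Ndufaf4 0.038, Ndufb5 0.017, Ndufb9 0.017, Ndufs8 0.20, Ndufv1 0.22 and Ndufv3 0.14. Over the left-out libraries Ndufa3 ranged from -0.027 to 0.36, Ndufaf4 from -0.39 to 0.12, Ndufs8 from -0.32 to 0.049 and Ndufv1 from -0.31 to 0.19. Same-numbered libraries correlated at 0.093, -0.028 and -0.18, and differently numbered ones at -0.15 to 0.18. Values were centred on the mean of each group, so these correlations cannot show whether the numbers pair the mice. With the replicate number as a block 0 complex I genes passed. Relative to protein-coding genes the subunit median was then 0.19 and the assembly median -0.067. The log2 fold changes were 0.12 for Ndufaf4, 0.049 for Ndufs8 and 0.19 for Ndufv1. No PBS library has the number 4, so the block takes Botox 4 out of the comparison and is no check apart from leaving that library out.

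Depth limits what can be seen, since many of the 48 genes had under 20 estimated reads in a library. The filter, which left out 31 of them, works on TPM per genomic span, so it also left out well-covered genes with long spans, such as Ndufa10 and Ndufs1. The design has 7 mice, and Botox 2 and Botox 4 carry most zeros.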

Other observations

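Of the 6 complex I genes whose groups did not overlap on deposited TPM, 5 had a RefSeq promoter (GRCm38.p6), and AAGATGGC, a motif of YY1, was found on either strand in all 5. These were Ndufs7, with all Botox libraries above all PBS libraries, and Ndufs4, Ndufs6, Ndufb8 and Ndufc1, with all Botox libraries below. Among the 36 complex I genes with a promoter whose groups overlapped, 3 held it (8.33%), Ndufa3, Ndufa9 and Ndufaf8. Among all protein-coding genes with a promoter and a value above 0, the motif was found at 165 of 2787 (5.92%) whose Botox libraries all lay below the PBS libraries and at 397 of 10115 (3.92%) whose groups overlapped. Of the 10 whose Botox libraries all lay above the PBS libraries, 1 held it, Ndufs7 itself. This was looked at after the values were seen, rests on few reads and includes genes that separated in opposite directions, and no test was run. Yy1 itself passed the filter and had a TPM of 9.23, 7.47, 7.18 and 3.72 in Botox 1 to 4, against 10.5, 9.85 and 9.52 in PBS 1 to 3. Its groups thus separated downward, as they did for 28.8% of tested protein-coding genes. Its log2 fold change was -0.52 ± 0.36 SE (limma adjusted p = 0.42), near the protein-coding median of -0.45, and 0.030 with size factors.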
